A study of Homo sapiens with 6 samples.

Results

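The core autophagy machinery is the set of proteins that build the autophagosome, a double membrane that closes around cytoplasm and delivers it to the lysosome. The 40 genes were taken from a list of autophagy symbols by known role, and no measured value entered the rule. The list was made with earlier results of these data known. All 40 were found among the 20042 genes of the count table by Ensembl identifier. Total RNA was sequenced from MDA-MB-231, a long-established line of triple-negative breast cancer cells. In 3 samples the cells had received a control siRNA (siCTRL, genotype labelled WT), and in 3 they had received siRNA-1 against ERBBride (genotype labelled ERBBride knock down). An siRNA is a short RNA duplex that directs the breakdown of matching transcripts, and the title of the series speaks of a long non-coding RNA. The groups hold 1 siRNA against ERBBride, the labels used here state no time after transfection, and no row of the count table was matched to the name ERBBride, whose own level was not analysed here. The comparison asks which transcripts of the autophagy machinery differed between cells given siRNA-1 and cells given the control siRNA.

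Autophagy starts when the ULK kinase complex is released from inhibition by mTORC1, the nutrient-sensing kinase, or is activated by AMPK, the energy-sensing kinase. A lipid kinase complex built on PIK3C3 and BECN1 then marks the membrane, ATG9A, ATG2 and WIPI proteins supply and receive lipid, and 2 linked conjugation systems attach LC3 and GABARAP proteins to it. Cargo receptors such as SQSTM1 (p62) and NBR1 bind LC3 and ubiquitinated cargo, and STX17 and EPG5 act when the autophagosome fuses with the lysosome. The process recycles amino acids and removes damaged proteins, and much of its control acts on proteins rather than on transcripts. The values below are RNA levels and say nothing of autophagic flux.

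Total counts lay between 12813706 and 15014434 per library, and a count of 0 allows a level of up to 0.233 CPM. CPM is a library's counts scaled to the same total, with TMM normalisation of that total, and this limit of 3 counts covers counting error only. The labels name biological replicates without saying how they were separated, and the p-values then speak only of the spread among these samples. Genes known to be high in this line were high in all libraries (VIM had 2652 ± 77.9 CPM, SD, n = 3, with siCTRL, against 1676 ± 28.9 CPM). Most of them fell with siRNA-1: VIM, CD44, AXL (2.24-fold), MSN (5.38-fold), CAV1 (2.18-fold), FOSL1 and PLAU (3.08-fold). LGALS1 did not pass with all libraries and fell without siCTRL 2. Of 7 genes known to be low in the line, ESR1, PGR, ESRP1 and GRHL2 had at most 3 counts in any library. The other 3 were detected in the controls and fell with siRNA-1: EPCAM had 203 to 234 counts against 76 to 80, GATA3 132 to 189 against 57 to 73, and CDH1 22 to 40 against 6 to 8. The part of these marker changes in the results that follow was not tested. Leaving out siCTRL 2 raised the number of genes called from 7772 to 8635, while leaving out siCTRL 1 or siCTRL 3 lowered it to 7147 or 7341, and results are also given without siCTRL 2 where that changes the call. In bulk RNA, a lower level in every cell and fewer cells with the transcript cannot be told apart.

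The machinery changed at many of its genes, by small amounts and in both directions. Of the 40 genes, 16 rose, 13 fell and 11 did not pass the test (edgeR, adjusted p under 0.05), so that 72.5% changed. Over all 12440 genes tested the share was 62.5%, with 31.5% higher and 31.0% lower, and among the 10050 genes with a mean of at least 100 counts it was 66.7%. All 40 members passed the filter on low counts. The median absolute log2 fold change was 0.35 in the members and 0.35 over all genes tested, and the median log2 fold change was 0.18 against 0.01. Changes of at least 0.5 on the log2 scale (1.41-fold) were seen in 13 members (32.5%), with 9 rises and 4 falls, against 32.0% of all genes (12.6% higher and 19.4% lower), and changes of at least 2-fold in 2 members (5.00%), ATG2B and TP53INP2, against 10.1%. The groups did not overlap in 33 members (82.5%), against 67.6% of all genes.

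Without siCTRL 2, 18 members rose, 16 fell and 6 did not pass, where 34.5% of all genes were higher and 34.3% lower (68.7% changed). The 29 members called with all libraries were called again in the same direction, and ULK1, ULK2, ATG4D, ATG10 and ATG16L1 were called in addition. The median log2 fold change of the members was then 0.11. Adjusted p-values were lower in that fit also where the fold change did not move. BECN1 had 0.59 in both fits, with 5.7e-06 for all libraries and 5.5e-16 without siCTRL 2 (edgeR). A gained call therefore need not be a larger change: ULK2 had 0.19 and 0.18, ATG4D -0.21 and -0.23, and ATG16L1 -0.14 and -0.17. Summed over the 39 members other than SQSTM1, levels were 2671 to 2703 CPM in the controls and 2993 to 3018 CPM in siRNA-1 libraries. With SQSTM1 included the sums were 3583 to 3815 CPM and 3801 to 3884 CPM, and the groups overlapped. Abundant genes weigh most in such sums. NBR1, which is in both, alone went from 253 ± 17.4 to 403 ± 9.07 CPM, so the sums do not show a rise across the machinery.

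**Figure D1:**
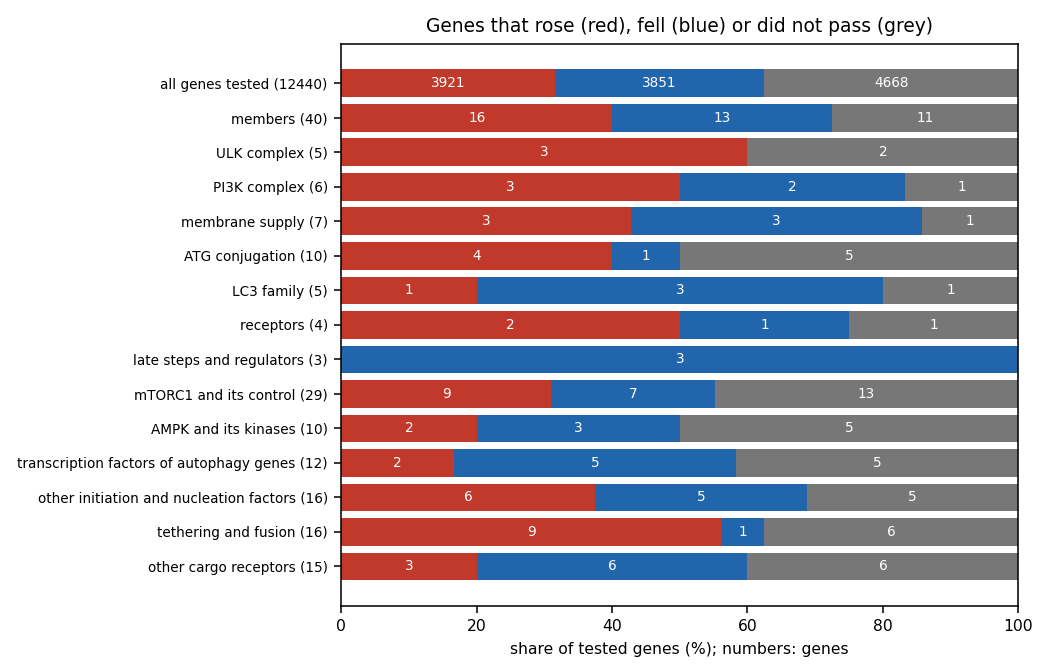
Share of tested genes (x axis, %) that rose, fell or did not pass (edgeR, adjusted p under 0.05), with gene numbers in the bars, for all genes tested, for the 40 members, for their 7 roles and for 6 lists of other autophagy genes. The members split into 16 rises and 13 falls, against 31.5% higher and 31.0% lower over all genes. The ULK complex (5 genes) had no falls, and the late steps and regulators (3 genes) had no rises. The list of tethering and fusion genes (16 tested) had 9 rises and 1 fall.

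**Figure D2:**
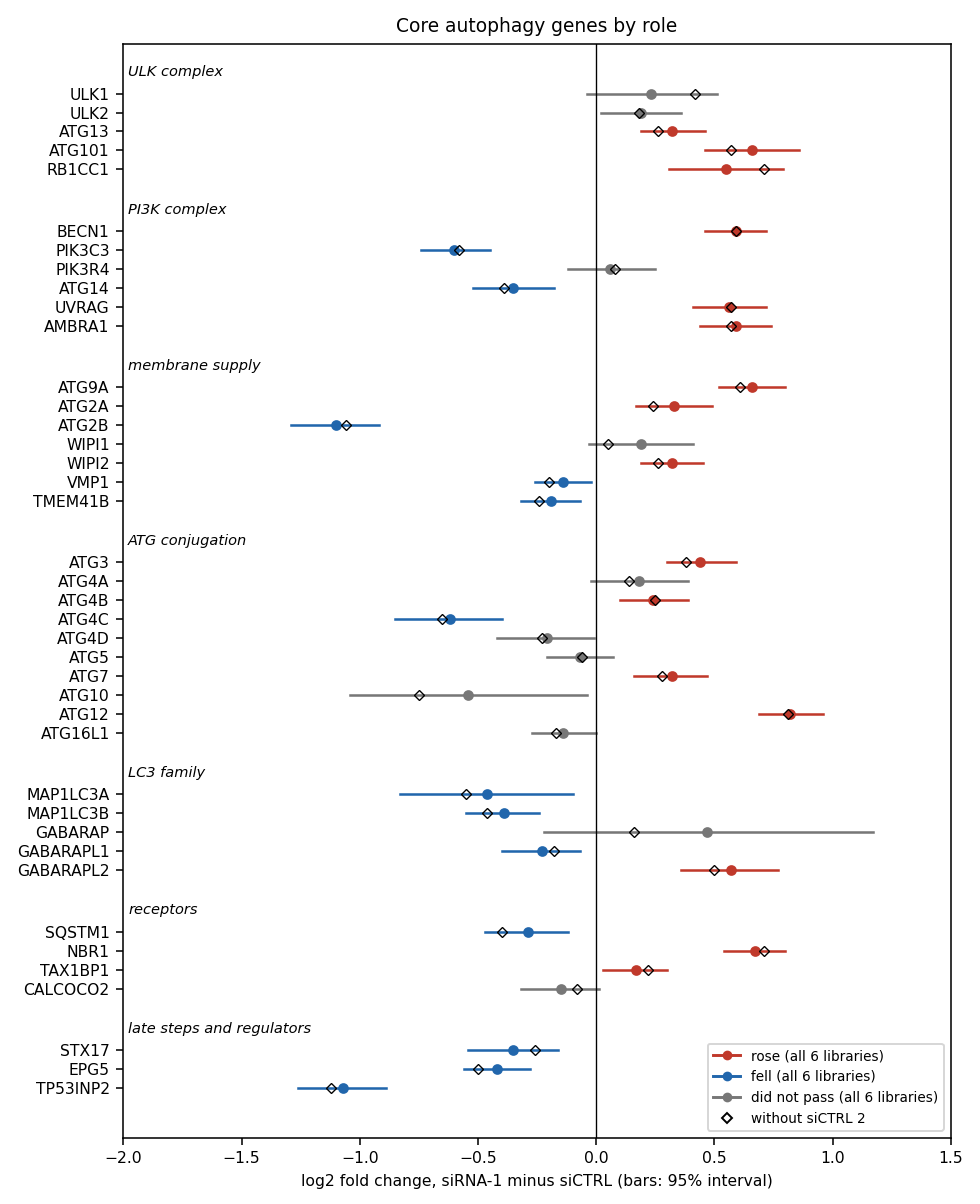
Log2 fold change of each of the 40 members (x axis, siRNA-1 minus siCTRL), ordered by role, with 95% intervals from edgeR over all 6 libraries, and diamonds for the value without siCTRL 2. Within a role, genes lie on both sides of 0 except in the ULK complex and the late steps, and the largest falls are those of ATG2B (-1.10) and TP53INP2 (-1.07).

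The members that hold 1 sequence of 7 bases anywhere in an annotated 3' untranslated region were all among those that fell. The 7 bases GCTCACT had been picked earlier as the most enriched in the 3' untranslated regions (3' UTRs) of genes that fell at least 2-fold in these same data, so what follows describes the members and is no separate evidence. Over all tested genes with a 3' UTR of at least 50 bases, 20.5% held it in an annotated 3' UTR: 12.7% of genes that rose, 31.2% of genes that fell and 18.3% of those that did not pass. Among the members 6 of 40 held it, and all 6 were among the 13 that fell (46.2%), while 0 of the 16 that rose and 0 of the 11 that did not pass held it. The genes were ATG2B (log2 fold change -1.10), TP53INP2 (-1.07), EPG5 (-0.42), ATG14 (-0.35), SQSTM1 (-0.29) and TMEM41B (-0.19). The other 7 members that fell, PIK3C3, ATG4C, MAP1LC3A, MAP1LC3B, GABARAPL1, STX17 and VMP1, did not hold it. Members with the bases also had longer 3' UTRs (median of the longest per gene, 3180 against 1484 bases), as did all tested genes (3117 against 1120 bases), and the part of length was not tested. The 8 sites follow in the sense of the transcript, with the 7 bases in capitals and 9 bases on each side, from GENCODE release 29 on GRCh38.
ATG2B, chr14:96285484-96285508, minus strand: tagtggaagGCTCACTtttgttaag
ATG2B, chr14:96280814-96280838, minus strand: gcaatcttaGCTCACTgcagcctcc
TP53INP2, chr20:34711815-34711839, plus strand: ctagtgtgtGCTCACTcttcctagg
EPG5, chr18:45849016-45849040, minus strand: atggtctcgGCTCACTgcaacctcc
ATG14, chr14:55367676-55367700, minus strand: accatctccGCTCACTgcaaccacc
SQSTM1, chr5:179836831-179836855, plus strand: agacccaagGCTCACTgcagcgcgc
SQSTM1, chr5:179837678-179837702, plus strand: accttggctGCTCACTgtccacatg
TMEM41B, chr11:9282310-9282334, minus strand: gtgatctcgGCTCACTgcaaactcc
In 5 of the 8 sites the next 3 bases were gca. Alu elements, mobile repeats found in many human transcripts, carry the 7 bases in this setting, and a repeat annotation was not used here. ATG2B and TP53INP2, the members with the largest falls, each had a site without gca after it, as did SQSTM1.

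**Figure D3:**
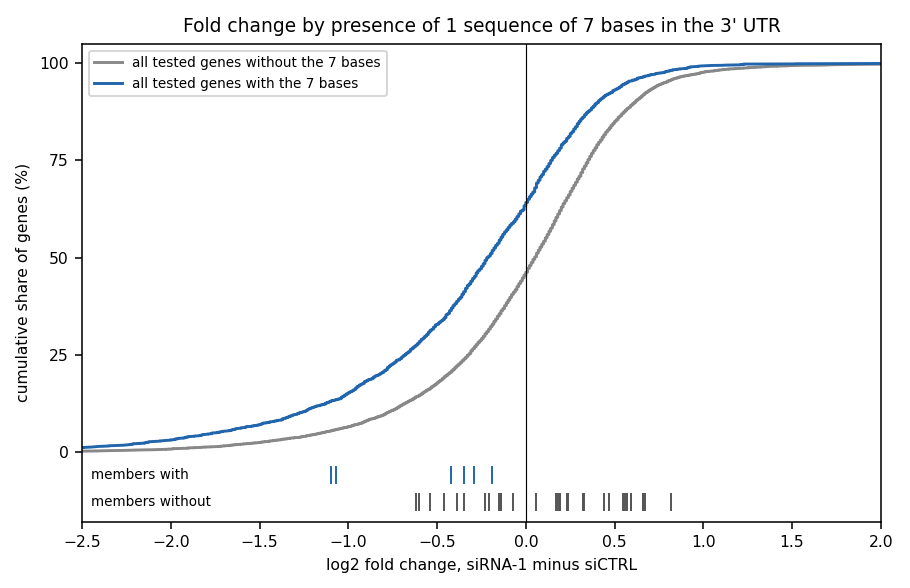
Cumulative share (y axis, %) of all tested genes by log2 fold change (x axis, siRNA-1 minus siCTRL), for genes with and without the 7 bases in a 3' UTR, with a tick for each member below. The 6 members with the bases lie between -1.10 and -0.19, and the 34 without them lie on both sides of 0.

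The ULK complex receives the signal to start, and of its 5 genes 3 rose, 2 did not pass and 0 fell. The share changed was 60.0%, against 62.5% of all genes tested (31.5% higher and 31.0% lower). The absence of falls among so few genes was not tested. ULK1 is its kinase, ULK2 a second kinase of the same kind, and ATG13, ATG101 and RB1CC1 (FIP200) are its scaffold subunits. ATG101, which stabilises ATG13, stood at 44.8, 37.8 and 45.5 CPM in the controls (siCTRL 1 to 3, in that order here and for each gene that follows) and at 72.3, 60.2 and 70.2 CPM with siRNA-1 (1 to 3). All siRNA-1 libraries lay above all controls, and the gene rose 1.58-fold (log2 fold change 0.66, SE 0.0896, adjusted p = 4.9e-05, edgeR). RB1CC1, the largest scaffold, had 59.3, 84.8 and 63.3 CPM in the controls and 96.3, 98.9 and 108 CPM with siRNA-1. It rose 1.46-fold (adjusted p = 0.00102), and siCTRL 2 was the control closest to the siRNA-1 libraries. ATG13 rose 1.25-fold (adjusted p = 0.000771), from 87.9 ± 6.14 to 110 ± 1.98 CPM.

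The calls of both kinases changed without siCTRL 2, while the fold change moved for ULK1 and hardly for ULK2. ULK1 had 31.3, 43.4 and 28.3 CPM in the controls and 40.4, 40.4 and 39.9 CPM with siRNA-1, so siCTRL 2 lay above every siRNA-1 library and the other controls lay below. With all libraries ULK1 missed the threshold (log2 fold change 0.23, 95% interval -0.04 to 0.51, edgeR adjusted p = 0.130), and without siCTRL 2 it rose (0.42, adjusted p = 1.1e-06). ULK2 did not pass either (0.19, adjusted p = 0.0546), although its groups did not overlap. By edgeR it passed without siCTRL 2 (log2 fold change 0.18, adjusted p = 0.0355) and without siRNA-1 3 (0.25, adjusted p = 0.0315). It also passed with no scaling beyond library size (0.23, adjusted p = 0.0247).

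The PIK3C3 lipid kinase complex makes phosphatidylinositol 3-phosphate on the forming membrane, and its subunits moved in opposite directions. BECN1 (beclin 1), the subunit that regulators bind, had 75.8, 74.6 and 68.5 CPM in the controls and 112, 106 and 112 CPM with siRNA-1. It rose 1.51-fold (log2 fold change 0.59, SE 0.0611, adjusted p = 5.7e-06), and the groups were far apart relative to their spread. PIK3C3 (VPS34), the catalytic subunit, had 75.1, 76.4 and 67.8 CPM in the controls and 49.9, 47.8 and 47.1 CPM with siRNA-1, a fall of 1.52-fold (adjusted p = 9.8e-06). PIK3R4, the third core subunit, did not pass (log2 fold change 0.06, 95% interval -0.12 to 0.25). Exons of CNTD1 and PSME3 on the other strand cover 17.1% of the exonic bases of BECN1. PSME3 also rose, from 188 ± 24.6 to 327 ± 20.1 CPM, the labels do not state whether counting used strand, and the part of this overlap was not tested. Exons on the other strand also cover parts of other members, among them WIPI1 (28.1%), ATG101 (19.2%), ATG7 (18.1%) and ATG4D (15%). The part of those overlaps was not tested either.

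The subunits that set where the complex works differed too. ATG14, which directs it to autophagosome formation, fell 1.27-fold, from 46.8 ± 4.00 to 36.8 ± 1.43 CPM (adjusted p = 0.00201). UVRAG takes the place of ATG14 in a complex of the endosomal pathway. It had 35.9, 38.9 and 37.9 CPM in the controls and 51.7, 56.8 and 57.8 CPM with siRNA-1, and rose 1.48-fold (adjusted p = 2.7e-05). AMBRA1, a scaffold that links BECN1 to ubiquitin ligases, had 38.9, 36.1 and 34.4 CPM in the controls against 55.7, 56.1 and 53.4 CPM. It rose 1.51-fold (adjusted p = 1.4e-05) with no overlap of the groups.

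Among the genes of membrane supply 3 rose, 3 fell and 1 did not pass (85.7% changed, against 62.5% of all genes tested). ATG9A is the lipid scramblase carried on small vesicles that seed the membrane. It had 43.7, 40.4 and 43.6 CPM in the controls and 65.9, 66.8 and 69.6 CPM with siRNA-1, and rose 1.58-fold (adjusted p = 3.1e-06). The gene AC068946.2 shares 38.8% of the exonic bases of ATG9A on the same strand and had 3 counts over all libraries. ATG2A and ATG2B encode tube-shaped proteins that pass lipid from the endoplasmic reticulum, and they moved apart. ATG2B had 604, 586 and 538 counts in the controls against 262, 311 and 296 counts with siRNA-1. Every siRNA-1 library was far below every control, at 19.7 ± 1.22 CPM against 42.3 ± 2.87 CPM. By edgeR the fall was 2.14-fold (adjusted p = 4.9e-07), a log2 fold change of -1.10 with SE 0.0843. The gene (ENSG00000066739, chromosome 14, 96279202 to 96363870 on GRCh38, minus strand) carries 2 sites of the 7 bases, printed above. ATG2A rose 1.26-fold, from 84.0 ± 7.76 to 106 ± 5.10 CPM (adjusted p = 0.00187).

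WIPI1 and WIPI2 bind the phosphoinositide that PIK3C3 makes, and WIPI2 brings in the conjugation machinery. WIPI2 rose 1.25-fold, from 107 ± 6.66 to 134 ± 3.74 CPM (adjusted p = 0.000596). WIPI1 did not pass (log2 fold change 0.19, 95% interval -0.03 to 0.41), and siCTRL 2 was its lowest library at 42.0 CPM, against 56.4 to 62.1 CPM in the other 5, and without it the log2 fold change was 0.05. VMP1 and TMEM41B are scramblases of the endoplasmic reticulum that work with ATG2. TMEM41B fell 1.14-fold (adjusted p = 0.0114), a call that was lost without siRNA-1 1 (adjusted p = 0.0521) and without siRNA-1 3 (0.0510). VMP1 fell 1.10-fold with an adjusted p of 0.0493, close to the threshold. It was called without siCTRL 2 (adjusted p = 6.0e-05) and missed the threshold without each other library in turn (adjusted p from 0.105 without siRNA-1 1 to 0.155 without siCTRL 1).

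The conjugation systems join ATG12 to ATG5 and LC3 to lipid, and 4 of their 10 genes rose, 1 fell and 5 did not pass. With all libraries, a smaller share of them changed than the 62.5% of all genes tested (31.5% higher and 31.0% lower). Whether rises were more frequent among these 10 genes than among all genes was not tested. ATG12, the ubiquitin-like protein joined to ATG5, showed the largest rise of the 40 members. It had 58.1, 60.3 and 62.4 CPM in the controls and 108, 101 and 111 CPM with siRNA-1, a rise of 1.77-fold (log2 fold change 0.82, SE 0.0613, adjusted p = 3.9e-07, edgeR). Its gene is ENSG00000145782 (chromosome 5, 115828200 to 115841858, minus strand). ATG5, its partner, had 57.6, 62.9 and 62.8 CPM in the controls and 60.3, 57.0 and 57.5 CPM with siRNA-1. Those groups overlapped and the gene did not pass (log2 fold change -0.07, 95% interval -0.21 to 0.07). ATG16L1, which completes the complex, did not pass with all libraries (-0.14, adjusted p = 0.0793) and fell without siCTRL 2 (-0.17, adjusted p = 0.0234).

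Of the E1-like and E2-like enzymes, ATG7 and ATG3 rose and ATG10 did not pass. ATG7, the enzyme that activates both ATG12 and LC3, had 40.6, 39.4 and 42.2 CPM in the controls and 51.0, 53.6 and 47.6 CPM with siRNA-1, and rose 1.25-fold (adjusted p = 0.00185). ATG3, the E2-like enzyme for LC3, rose 1.36-fold, from 65.5 ± 4.38 to 89.2 ± 2.40 CPM (adjusted p = 8.0e-05). ATG10, the E2-like enzyme for ATG12, was sparse at 43 to 92 counts per library. With all libraries its adjusted p was 0.0575 (log2 fold change -0.54), and without siCTRL 2 it fell (-0.75, adjusted p = 0.000361).

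The 4 ATG4 proteases process LC3 and remove it from lipid. ATG4B, the most active of them on LC3, rose 1.18-fold, from 32.9 ± 0.943 to 38.9 ± 0.353 CPM (adjusted p = 0.00780). ATG4C had 17.9, 18.9 and 21.4 CPM in the controls and 12.1, 13.2 and 12.5 CPM with siRNA-1, and fell 1.54-fold (adjusted p = 0.000223). ATG4A did not pass (log2 fold change 0.18, 95% interval -0.02 to 0.39). ATG4D did not pass with all libraries (-0.21, adjusted p = 0.0684) and fell without siCTRL 2 (-0.23, adjusted p = 0.0320).

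The LC3 and GABARAP proteins coat the membrane, and 3 of the 5 genes fell while 1 rose (80.0% changed, against 62.5% of all genes tested). MAP1LC3B (LC3B), the usual marker of autophagosomes, had 89.1, 77.0 and 83.5 CPM in the controls and 63.8, 67.1 and 59.1 CPM with siRNA-1. It fell 1.31-fold with no overlap (log2 fold change -0.39, SE 0.0722, adjusted p = 0.000518). MAP1LC3B2, a near-identical copy elsewhere in the genome, did not pass (20.0 ± 1.82 and 21.7 ± 2.04 CPM), and reads of the 2 genes cannot be assigned with certainty. GABARAPL2 (GATE-16) had 42.5, 34.6 and 35.2 CPM in the controls and 60.6, 56.0 and 50.4 CPM with siRNA-1, and rose 1.48-fold (adjusted p = 0.000235).

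GABARAPL1 fell 1.18-fold (adjusted p = 0.0158), a call that was lost without siRNA-1 1 (adjusted p = 0.0514) and without siRNA-1 2 (0.0629). MAP1LC3A, at 56 to 97 counts per library, fell 1.38-fold (adjusted p = 0.0302). Its call was lost without siCTRL 1 (adjusted p = 0.0812), siCTRL 3 (0.0786), siRNA-1 1 (0.0764) or siRNA-1 3 (0.129). GABARAP itself had 13 to 55 counts per library and did not pass (log2 fold change 0.47, 95% interval -0.22 to 1.17). With so few counts, a change of the size of GABARAPL2 was not detectable. Its log2 fold change was 0.16 without siCTRL 2, which had the 13 counts, 0.24 without siRNA-1 2, which had the 55, and as high as 0.70 without siCTRL 1. The gene AC120057.2 covers 30.5% of the exonic bases of GABARAP on the same strand and had 0 counts in all libraries, and AC120057.3 covers 25.2% on the other strand. The part of these overlaps in the low count was not tested.

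Of the cargo receptors, NBR1 rose and SQSTM1 fell. SQSTM1 (p62), which gathers ubiquitinated proteins, was the member with the most counts. It had 1056, 880 and 1136 CPM in the controls and 866, 836 and 806 CPM with siRNA-1, so siCTRL 2 lay just above the highest siRNA-1 library. The fall was 1.22-fold (log2 fold change -0.29, adjusted p = 0.00716) and -0.40 without siCTRL 2. Exons of MGAT4B and MRNIP on the other strand cover 22.0% of its exonic bases. NBR1, a receptor that works beside SQSTM1 and recruits TAX1BP1, had 239, 272 and 248 CPM in the controls and 413, 402 and 395 CPM with siRNA-1. It rose 1.59-fold (log2 fold change 0.67, SE 0.0586, adjusted p = 1.5e-06, edgeR), with every siRNA-1 library well above every control. Its gene is ENSG00000188554 (chromosome 17, 43170481 to 43211689, plus strand).

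TAX1BP1 rose 1.12-fold with all libraries (adjusted p = 0.0323). Without siCTRL 2 the adjusted p was 7.3e-06, and without each other library it missed the threshold (0.0687 without siRNA-1 2 to 0.177 without siCTRL 1). CALCOCO2 (NDP52), a receptor for bacteria and mitochondria, missed the threshold at an adjusted p of 0.0967 (log2 fold change -0.15), and passed as a fall only without siCTRL 1 (-0.21, adjusted p = 0.0458) among the fits that left out a library.

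The genes of the late steps and the LC3-binding regulator TP53INP2 all fell. They are 3 genes, and 31.0% of all genes tested fell. The fall was not shared by the other tethering and fusion genes described below, where 9 rose and 1 fell among 16 tested (62.5% changed). TP53INP2 (DOR) binds LC3 and helps move it out of the nucleus. It had 33.5, 30.5 and 32.6 CPM in the controls and 16.1, 14.4 and 15.4 CPM with siRNA-1. The libraries of each group lay close together, and the fall was 2.10-fold (adjusted p = 6.7e-07 by edgeR, log2 fold change -1.07, SE 0.0854). Its gene is ENSG00000078804 (chromosome 20, 34704290 to 34713439, plus strand). EPG5, a tether between autophagosome and lysosome, fell 1.34-fold, from 147 ± 11.7 to 110 ± 0.879 CPM (adjusted p = 0.000111). STX17, the fusion SNARE of the autophagosome, fell 1.27-fold, from 51.4 ± 6.39 to 40.3 ± 1.20 CPM (adjusted p = 0.00400), and siCTRL 2 was its highest library at 58.8 CPM.

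**Figure D4:**
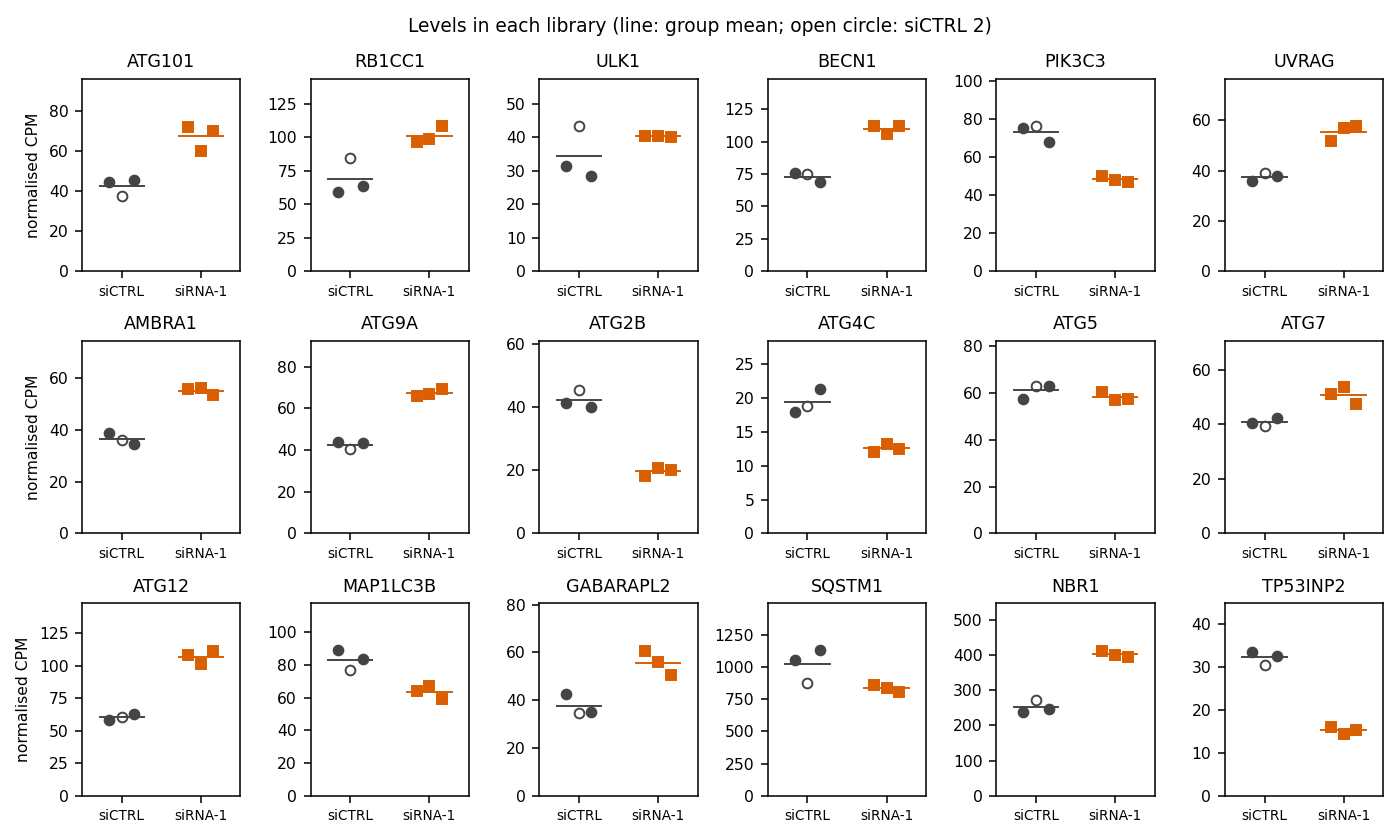
Normalised CPM (y axis, from 0) of 18 members in each library, with circles for siCTRL, an open circle for siCTRL 2, squares for siRNA-1 and lines for group means. Panels hold the members called with a log2 change of at least 0.5, and ULK1, BECN1, ATG5, ATG7, MAP1LC3B and SQSTM1 whatever their result. The groups overlap for ULK1 and ATG5 and are apart in the other 16 of the 18 panels. Most panels were picked for a called change, so this count is no separate result. Groups did not overlap in 67.6% of all genes tested.

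Ratios between genes that act at the same step do not depend on how libraries are scaled. For 9 pairs, chosen with the values in view and therefore given without a test, 7 ratios did not overlap between the groups. For each ATG2B count there were 2.11, 1.65 and 2.24 ATG2A counts in the controls, and 5.60, 5.41 and 5.11 with siRNA-1, a 2.71-fold difference. BECN1 per PIK3C3 was close to 1 in every control (0.999 ± 0.0192, SD, n = 3) and 2.28 ± 0.0923 with siRNA-1. GABARAPL2 per MAP1LC3B went from 0.450 ± 0.0274 to 0.878 ± 0.0615. ATG12 per ATG5 went from 0.987 ± 0.0252 to 1.83 ± 0.0882. NBR1 per SQSTM1 was 0.226, 0.310 and 0.219 in the controls and 0.476, 0.480 and 0.489 with siRNA-1. ATG14 per UVRAG, subunits that exclude each other from the complex, went from 1.25 ± 0.158 to 0.666 ± 0.0647, and ATG4B per ATG4C from 1.70 ± 0.192 to 3.09 ± 0.117. Overlapping ratios were those of ULK1 per ULK2 (1.08 ± 0.256 and 1.11 ± 0.0745) and WIPI1 per WIPI2 (0.480 ± 0.0511 and 0.441 ± 0.0275).

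**Figure D5:**
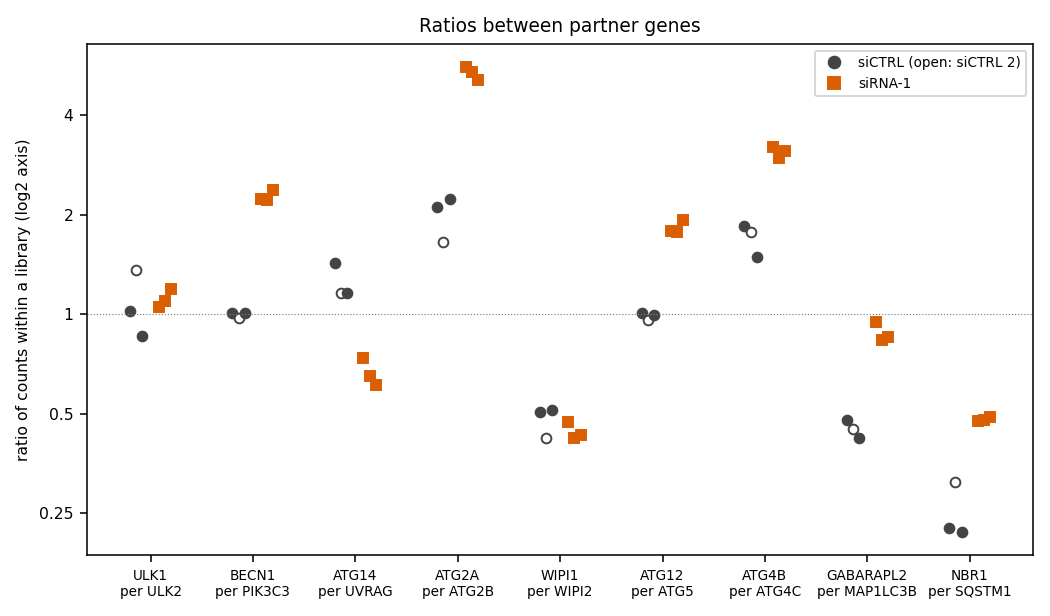
Ratio of raw counts of 2 genes within each library (y axis, log2 scale) for 9 pairs, with circles for siCTRL, an open circle for siCTRL 2 and squares for siRNA-1. The widest separation is that of ATG2A per ATG2B, at 1.65 to 2.24 in controls and 5.11 to 5.60 with siRNA-1, while the groups overlap for ULK1 per ULK2 and WIPI1 per WIPI2.

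Compared per length, SQSTM1 was the most abundant transcript of the machinery in every group. Levels here are CPM per kilobase of annotated exon (all isoforms merged). It reached 134 ± 17.1 with siCTRL (SD, n = 3) against 109 ± 3.90 with siRNA-1. In the controls VMP1 (32.1 ± 1.79), TAX1BP1 (30.3 ± 2.41) and NBR1 (30.1 ± 2.07) followed, at levels that did not differ beyond their spread. With siRNA-1 NBR1 (47.9 ± 1.08) stood second, above TAX1BP1 (34.0 ± 0.330) and VMP1 (29.2 ± 0.437). In the LC3 family MAP1LC3B led in the controls (15.7 ± 1.14), above GABARAPL2 (12.3 ± 1.44) and GABARAPL1 (11.7 ± 0.998), which overlapped. With siRNA-1 GABARAPL2 led (18.3 ± 1.68), above MAP1LC3B (11.9 ± 0.759) and GABARAPL1 (9.94 ± 0.113). The lowest members in the controls were GABARAP (0.881 ± 0.380), ATG10 (0.986 ± 0.262) and ATG2B (2.86 ± 0.195). These values were not corrected for bases shared with other genes, which cover 30.5% of GABARAP on the same strand, so its place is uncertain.

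Short motifs were looked for in the promoters. RefSeq promoters (GRCh38.p14, 250 bases before to 50 after the start) were matched for 34 of the 40 members, and 4 motifs were searched on both strands. The E-box CACGTG, which the TFEB family and other helix-loop-helix factors bind, was present in 2 members (5.88%), ATG3 and ATG14, and in 7.26% of all 35116 promoters. ATG3 rose and ATG14 fell. Their E-boxes are shown in capitals, with 12 bases on each side.
ATG3, chr3:112561963-112561992, minus strand: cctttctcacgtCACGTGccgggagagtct
ATG3, chr3:112561940-112561969, minus strand: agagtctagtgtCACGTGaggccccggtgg
ATG14, chr14:55411834-55411863, minus strand: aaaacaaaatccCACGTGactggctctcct
TTGCATCA, a form of the element bound by ATF4 with its partners, and TGACTCA, the AP-1 site, were in 0 member promoters (0.866% and 4.95% of all). CCGGAAGT, an ETS family site, was in 5 of the 34 members (14.7%, against 4.14% of all promoters, a difference that was not tested): PIK3C3, VMP1 and ATG4C, which fell, and ATG7 and GABARAPL2, which rose. The shares of all promoters include genes that were not among those tested here, while every member was tested, so the 2 sets are unlike. A match in these windows describes the letters and shows no binding.

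Other genes of the pathway were followed in 6 lists chosen for their known role. Of 102 genes 98 were tested, and 31 rose, 27 fell and 40 did not pass (59.2% changed, against 62.5% of all genes), with a median log2 fold change of 0.01. Among 29 genes of mTORC1 and its control 9 rose, 7 fell and 13 did not pass (55.2% changed). MTOR, the kinase that holds ULK1 inactive, rose 1.27-fold, from 101 ± 2.41 to 129 ± 2.27 CPM (adjusted p = 0.000129, edgeR), and AKT1S1 (PRAS40), an inhibitor of mTORC1, rose 1.56-fold. DDIT4 (REDD1), a stress-induced inhibitor of mTORC1, fell 3.31-fold, from 317 ± 60.1 to 96.0 ± 3.15 CPM. Of the 3 sestrin genes, whose products also inhibit mTORC1, SESN3 fell 4.11-fold, SESN2 fell 1.32-fold (named after its value was seen) and SESN1 rose 1.80-fold. Of the 10 tested AMPK genes and upstream kinases 2 rose and 3 fell. The catalytic subunit gene PRKAA1 (log2 fold change -0.52) and the upstream kinase gene CAMKK2 (-0.45) fell, and the subunit gene PRKAG2 (0.33) and CAB39 (0.30), a partner of the kinase STK11, rose.

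Of 12 genes for regulators of autophagy gene transcription, 2 rose and 5 fell (58.3% changed, against 62.5% of all genes tested). TFEB, the main activator of lysosomal and autophagy genes, did not pass (11.7 ± 1.26 and 10.7 ± 0.215 CPM, log2 fold change -0.13, 95% interval -0.38 to 0.12). Its relative TFE3 rose 1.28-fold, from 168 ± 12.4 to 215 ± 4.57 CPM. FOXO3, an activator, fell 1.60-fold, and ATF4, which induces autophagy genes under amino acid shortage, fell 1.55-fold, from 329 ± 29.4 to 212 ± 8.19 CPM. Other initiation and nucleation factors split into 6 rises and 5 falls among 16 tested (68.8% changed). The falls numbered 3 without siRNA-1 1 or siRNA-1 2. The paralogs WDR45 (WIPI4) and WDR45B (WIPI3) moved apart, with a fall of 2.43-fold and a rise of 1.69-fold. TBK1, the kinase that phosphorylates cargo receptors, rose 1.92-fold. BCL2L1 (BCL-XL), a binding partner of BECN1, fell 1.91-fold.

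Tethering and fusion genes had 9 rises and 1 fall among 16 tested. The SNARE gene YKT6 rose 2.04-fold, from 149 ± 15.6 to 303 ± 2.95 CPM (adjusted p = 2.2e-07), and PLEKHM1, an adaptor for RAB7A, rose 1.68-fold. VPS39, the HOPS subunit that binds RAB7A, fell 2.43-fold. The rises in this list numbered 4 without siRNA-1 1 and 5 without siRNA-1 2, and the falls numbered 3 without siCTRL 2. VAMP7 was listed at 0 in all libraries, as was its second copy in the pseudoautosomal region, where reads match both copies. Among 15 other cargo receptors 3 rose and 6 fell (60.0% changed, against 62.5% of all genes tested). RETREG3 (1.52-fold) and WDFY3 (1.40-fold) rose. RETREG1 (1.95-fold) and STBD1 (2.25-fold), both sparse in the controls (3.66 ± 1.21 and 1.38 ± 0.171 CPM), fell.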

How the data were processed

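The deposited table holds unnormalised read counts of 6 libraries by Ensembl gene. Per the submitters' processing notes the authors used Trimmomatic, STAR, HTSeq and kallisto with hg38. Versions, annotation release and strand setting: not given in the sources used here. Counts were analysed with edgeR 4.0.16 in R 4.3.3. Of 20042 genes 12440 passed filterByExpr (minimum count 10, minimum total 15). Library totals were adjusted by TMM (trimmed mean of M values). The two-sided quasi-likelihood test of siRNA-1 against siCTRL had no covariate, and its p-values were adjusted by Benjamini-Hochberg over the 12440 genes. SE and 95% intervals come from the F statistic. The steps were tested on simulated counts. Positions, exon lengths and overlaps come from GENCODE release 29. Members, lists and ratios were chosen with earlier results of these data known. Library values are printed for members changed by at least 0.5 (log2) and for ULK1, BECN1, ATG5, ATG7, MAP1LC3B and SQSTM1. In other lists the 2 largest changes in each direction are named, with ATF4, TFEB and MTOR; 1 gene is not reported here. MAP1LC3B2, PSME3 and SESN2 were named after their values were seen. Alternatives used the size factors or the Wald test of DESeq2 1.42.0, no scaling, no filter, a mean of at least 100 counts, voom of limma 3.58.1, a replicate block, a threshold of 0.01 and each library left out.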

Additional observations from a re-analysis of the deposited data

How the results depend on the processing

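Over 14 alternatives the members changed numbered 24 to 34 (29 as reported), those higher 15 to 18 and those lower 9 to 16, while genes changed overall numbered 6206 to 8635. Leaving out 1 library at a time gave 24 to 34 members, 6848 to 8635 genes, and a median log2 fold change of the members between 0.11 (without siCTRL 2) and 0.17 (without siRNA-1 2), against 0.18. No member's fold change turned direction: of 557 recomputed values 515 kept their side of the threshold, 30 lost the call and 12 gained it, and 29 members changed their call under no alternative. The 25 pathway genes that the naming rule took kept theirs in all 348 values. With the replicate block 27 members were called (16 higher, 11 lower), with VMP1 (adjusted p = 0.0706) and MAP1LC3A (0.0508) lost. Libraries with the same number did not deviate together (correlations 0.08, -0.08 and -0.08). With 3 libraries per group this cannot decide whether those with the same number were prepared in parallel. Small role counts moved most. Falls in conjugation went from 1 to 2 without the filter on low counts, 3 at a mean of at least 100 counts and 4 without siCTRL 2. Rises in the ULK complex went from 3 to 5 without siCTRL 2. Among receptors, rises went from 2 to 1 at a mean of at least 100 counts, at a threshold of 0.01 and without any 1 library except siCTRL 2, and falls from 1 to 2 at that mean and without siCTRL 1. Falls in membrane supply went from 3 to 1 without siRNA-1 1 or 3, and in the LC3 family from 3 to 1 without siRNA-1 1, both also at a threshold of 0.01. In the other lists, falls of initiation factors went from 5 to 3 with no scaling, without siRNA-1 1 or 2 and at a threshold of 0.01. Rises of tethering and fusion genes went from 9 to 4 without siRNA-1 1 or at that threshold and to 5 without siRNA-1 2, and their falls from 1 to 2 at a mean of at least 100 counts and 3 without siCTRL 2. The causes were not tested. GABARAP, ATG10 and MAP1LC3A had under 100 counts in every library, which limits what can be said of them. The part of gene overlap in the low count of GABARAP was not tested.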
